A study of Homo sapiens with 4 samples.

Results

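The genes described are 8 that encode writers of N6-methyladenosine (m6A), the most abundant internal modification of mRNA, and their partners: METTL3, METTL14, METTL16, WTAP, ZC3H13, RBM15, RBM15B and CBLL1. They were chosen by gene name, with no measured value in the rule, and all 8 are among the 28283 genes of the expression table. METTL3 transfers a methyl group from S-adenosylmethionine to adenosine, and METTL14 pairs with it to bind the RNA. WTAP, ZC3H13, VIRMA, CBLL1 (also called HAKAI) and the paralogs RBM15 and RBM15B hold the METTL3-METTL14 pair in nuclear speckles and bring it to its RNA targets. METTL16 works alone, on U6 snRNA and on hairpins of MAT2A mRNA, which encodes the enzyme that makes S-adenosylmethionine.

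The cells were A549, an established line from human lung adenocarcinoma. The control cells carried the pLKO.1 vector (shNC), and the other cells stably carried 1 lentiviral shRNA against YTHDF2 (shY2-2), a cytoplasmic reader that speeds the decay of m6A-marked mRNA; lentiviral lines of the study were selected with puromycin. From each condition, poly(A) RNA was fragmented, and 1 library was made before (input) and 1 after precipitation with an m6A antibody (IP), which makes 4 libraries. With 1 library of each kind per condition, no difference below has a replicate check or a test, and an effect of losing YTHDF2 cannot be told apart from another effect of that shRNA or from the spread between cultures.

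YTHDF2 itself was listed at 3.56 FPKM in shNC and 1.02 FPKM in shY2-2 (log2 ratio -1.18). FPKM is fragments per length of exon, scaled to the mapped fragments of a library, so levels can be compared between genes, but the number of fragments behind a value is unknown. The line's markers were as follows. The 5 epithelial markers spanned 2.02 to 523 FPKM in shNC and 1.20 to 322 in shY2-2, and each was lower in shY2-2. The 4 genes known to be high in A549 spanned 67.6 to 1801 and 64.9 to 2044 FPKM, while CDKN2A, which is deleted in A549, was at 0.0153 and 0.0178. Of the 4 lung lineage markers, SFTPC and NAPSA were under 1 FPKM in both libraries, and NKX2-1 and SFTPB were not found by name among the listed genes. Of 8 markers of blood, endothelial and stromal cells, 7 were under 1 FPKM in both libraries, and COL1A1 was at 0.834 and 1.64. The summed level of the epithelial list moved from 948 to 622 FPKM, and its part in the results below was not tested.

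Sequences are given here to show the RNA under peaks described below. Each is a window of 21 nt in a place where m6A peaks of both conditions overlapped, read 5′ to 3′ on the strand of the gene from GRCh38. The capitals mark GGAC, the core most often methylated by METTL3-METTL14. Where the shared part of the peaks held no GGAC, they mark a match to the wider DRACH consensus, which ends in A, C or T. In the METTL14 window and the ZC3H13 coding window a G follows GGAC, so the marked GGAC there is not a DRACH match. A match is a description of the letters, since m6A-seq does not show which adenosine is methylated. The METTL3 window lies at chr14:21502379-21502399 (minus strand), in intron 3 of the canonical transcript and in an exon of another METTL3 transcript. The METTL14 window is coding, at chr4:118710199-118710219 (plus strand, exon 11). The METTL16 windows lie at chr17:2420183-2420203, in coding sequence, and chr17:2418376-2418396, in the 3′UTR, both on the minus strand in exon 10. The ZC3H13 windows lie on the minus strand at chr13:45975353-45975373, in coding sequence of exon 12, and chr13:45956733-45956753, in the 3′UTR. The RBM15 windows lie on the plus strand at chr1:110341592-110341612, in coding sequence of exon 1, and chr1:110346561-110346581, in the 3′UTR. The RBM15B window lies at chr3:51394003-51394023 (plus strand), in coding sequence, with its adenosine 59 nt before the end of the stop codon.
METTL3, alternative exon: gtgaggaaGGACtgaacccct
METTL14, coding: ctggccgtGGACgagaaagaa
METTL16, coding: ggagcccaGGACcaagaggct
METTL16, 3′UTR: ctaatctcGAACTcatgatct
ZC3H13, coding: aagacaaaGGACgagatgacc
ZC3H13, 3′UTR: ttattcaaAAACAatgtgttc
RBM15, coding: gaagcaccGGACaactgctcc
RBM15, 3′UTR: gtaaagaaAAACCctttttat
RBM15B, coding: agcactaaGGACattgggcaa

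The RNA of the writer genes was compared between the input libraries, where the 8 genes split evenly in direction. RBM15B stood highest in ratio and ZC3H13 lowest. With a pseudocount of 1, none of the 8 was 1.5-fold higher or lower; with a pseudocount of 0.1, 1 of them, RBM15B, was 1.5-fold higher. Ratios are log2((FPKM shY2-2 + 1)/(FPKM shNC + 1)), a scale that understates the change of low genes. The background is the 12268 genes that reached an FPKM of 1 in either input library, a filter that all 8 genes passed. With a pseudocount of 0.1, 1105 of these 12268 genes were at least 1.5-fold higher in shY2-2 and 1683 at least 1.5-fold lower. The shares that follow use a pseudocount of 1. Of the 12268 genes, 5.38% were at least 1.5-fold higher in shY2-2 and 8.92% at least 1.5-fold lower. At 2-fold the shares were 0.986% and 2.14%. Among the 6535 genes whose mean FPKM lay within the range of the 8 (1.77 to 10.5), 5.23% and 9.58% passed 1.5-fold, and 1.01% and 2.31% passed 2-fold. In all, 4 writer genes were higher and 4 lower, where 50.3% of the background was higher. Their median ratio was -0.12, against 0.00 over the background.

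**Figure D1:**
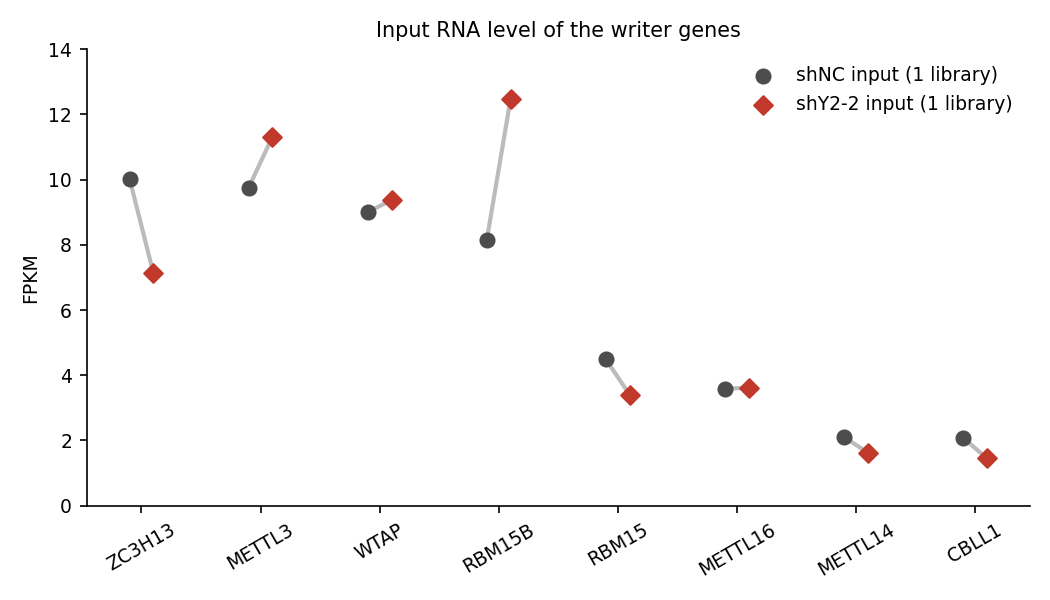
FPKM (vertical axis, from 0) of each of the 8 writer genes in the shNC input library (circles) and the shY2-2 input library (diamonds), 1 library each. RBM15B moved from 8.15 to 12.5 FPKM and ZC3H13 from 10.03 to 7.13, while METTL16 and WTAP lay almost at the same level in both.

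The genes of the catalytic pair moved apart. METTL3 (ENSG00000165819, chr14:21498133-21511375, minus strand) was at 9.75 FPKM in shNC and 11.3 in shY2-2, a log2 ratio of 0.20. METTL14 (ENSG00000145388, chr4:118685368-118715433, plus strand) was at 2.11 and 1.62 FPKM, a ratio of -0.25. METTL3 was thus the higher of the pair in both libraries, 4.62 times the FPKM of METTL14 in shNC and 6.98 times in shY2-2. The METTL14 ratio is at percentile 26.3 of the background and that of METTL3 at 70.8, both within the span from percentile 5 to 95 (-0.76 to 0.60). METTL16 (ENSG00000127804, chr17:2405562-2511891, minus strand) was at 3.59 and 3.62 FPKM. Its ratio of 0.01 was the nearest to 0 of the 8.

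Of the adaptor subunits, WTAP was level between libraries and ZC3H13 and CBLL1 were lower in shY2-2. WTAP (ENSG00000146457, chr6:159725585-159756319, plus strand), the subunit that docks METTL3-METTL14, was at 9.0 FPKM in shNC and 9.37 in shY2-2 (ratio 0.05). ZC3H13 (ENSG00000123200, chr13:45954465-46052759, minus strand), a zinc finger protein that helps keep the complex in the nucleus, was at 10.03 and 7.13 FPKM. Its ratio of -0.44 is at percentile 14.3. CBLL1 (ENSG00000105879, chr7:107743697-107761667, plus strand), a RING finger protein, was at 2.09 and 1.45 FPKM, a ratio of -0.34 at percentile 20.3. Without the pseudocount that is 0.693 times the shNC level, the lowest such value of the 8. VIRMA, the large scaffold subunit, was at 7.03 and 6.53 FPKM (ratio -0.09).

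The RNA-binding paralogs RBM15 and RBM15B, which bind near methylated sites and link the complex to them, went in opposite directions. RBM15 (ENSG00000162775, chr1:110338506-110346681, plus strand) was at 4.49 FPKM in shNC and 3.40 in shY2-2, a log2 ratio of -0.32. RBM15B (ENSG00000259956, chr3:51391268-51397908, plus strand) was at 8.15 and 12.5 FPKM. Its ratio of 0.56 is at percentile 93.9 of the background and lies just under the 1.5-fold line; without the pseudocount it was 1.53 times the shNC level. RBM15B had 1.82 times the FPKM of RBM15 in shNC and 3.67 times in shY2-2, while the sum of the paralogs moved from 12.6 to 15.9 FPKM. RBM15B has 1 exon of 6624 nt, and 1325 nt of it overlap exons of DCAF1 on the opposite strand. DCAF1 was at 7.81 and 8.05 FPKM (ratio 0.04). The libraries were strand-specific, but whether strand was used to compute FPKM is not given in the sources used here. On the same terms METTL3 shares 388 nt of exon with TOX4, which was at 5.33 and 4.71 FPKM, and WTAP shares 437 nt with SOD2, at 0.977 and 0.756. ZC3H13 shares 263 nt with CPB2-AS1, at 0.0122 and 0.00981 FPKM. RBM15 shares 175 nt with RBM15-AS1 and CBLL1 442 nt with CBLL1-AS1, both not found by name among the listed genes.

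In shNC the order of level ran from ZC3H13 through METTL3, WTAP, RBM15B, RBM15, METTL16 and METTL14 to CBLL1. In shY2-2 it ran from RBM15B through METTL3, WTAP, ZC3H13, METTL16, RBM15 and METTL14 to CBLL1. RBM15B and ZC3H13 thus exchanged places, as did RBM15 and METTL16, and with 1 library each no neighbours in either order can be told apart by a spread. The highest of the 8 had 4.80 times the FPKM of the lowest in shNC and 8.62 times in shY2-2. Their median was 6.32 and 5.38 FPKM, against 5.18 and 4.93 over the background.

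**Figure D2:**
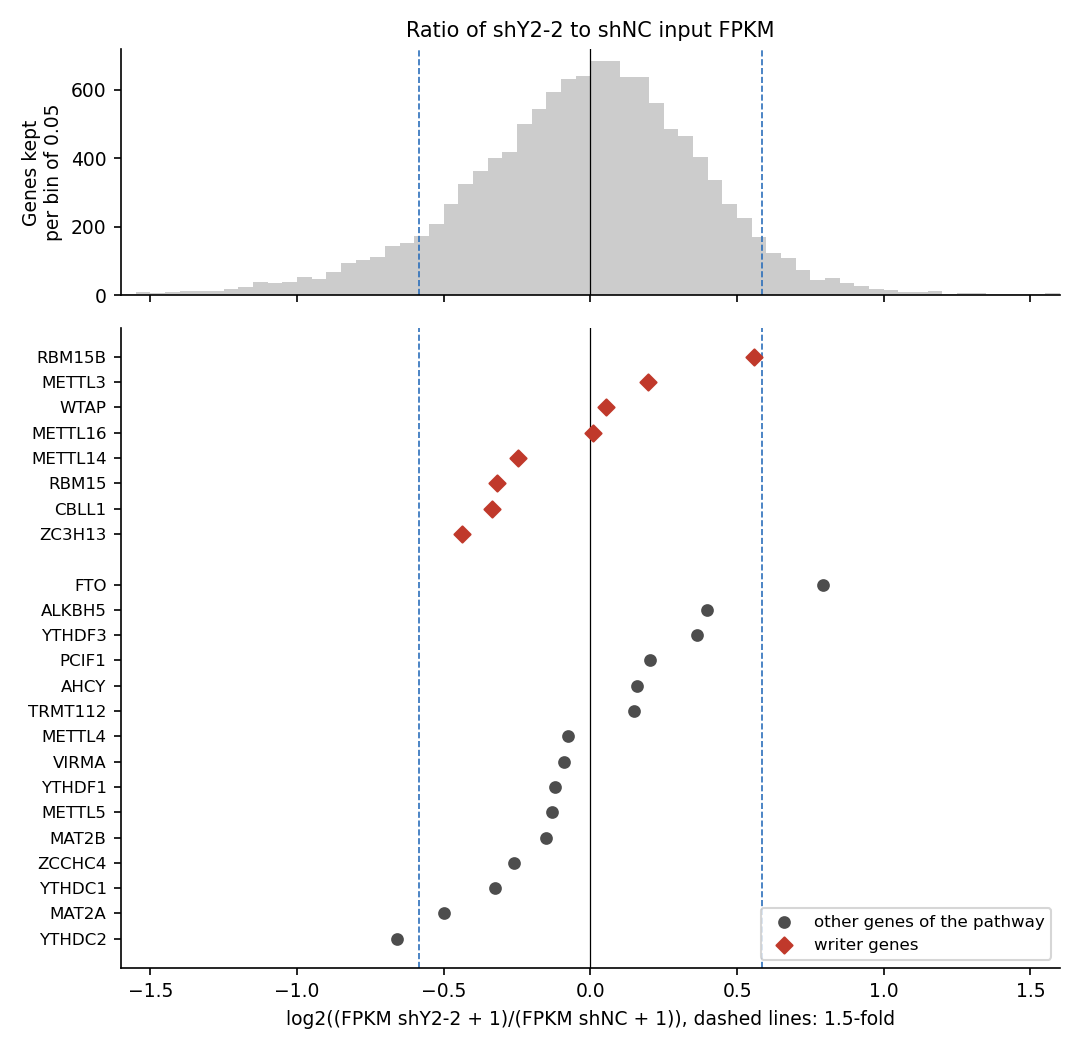
Log2 ratio of shY2-2 to shNC input FPKM (horizontal axis), as a histogram of all 12268 background genes (top, genes per bin) and for each writer gene (diamonds) and other gene of the pathway (circles), with dashed lines at 1.5-fold. All 8 writer genes lie inside the lines, and FTO (0.79) and YTHDC2 (-0.66) lie outside them.

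A list of 16 other genes that write, read, remove or supply m6A gives the surroundings. In the input libraries 15 of them passed the filter, 6 higher and 9 lower in shY2-2, with a median ratio of -0.09. Past 1.5-fold were 1 in each direction, where 5.38% of the background was higher and 8.92% lower by that much. FTO, an RNA demethylase, was at 0.948 and 2.37 FPKM (ratio 0.79), so it passed the filter only through shY2-2, where it was higher. YTHDC2, a helicase that reads m6A, was at 4.49 and 2.48 FPKM (ratio -0.66). The target of METTL16, MAT2A, named after its value was seen, was at 126 FPKM in shNC and 88.9 in shY2-2. Its ratio of -0.50 is short of 1.5-fold and at percentile 11.5 of the background. METTL16 itself was level, and a link between these genes was not tested.

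The peak lists were read next for m6A on the writers' own transcripts. METTL3, METTL14, METTL16, ZC3H13, RBM15 and RBM15B carried peaks at the same place in both conditions, WTAP had a weak peak in shNC only, and the CBLL1 peaks did not overlap between conditions. Peaks were called in each condition on its 1 IP library against its 1 input library, and fold enrichment is IP over input as the peak caller gave it. The 8 genes held 26 of 31057 peaks in shNC and 27 of 27344 in shY2-2. The study reports fewer peaks per condition than these lists hold, and the source of that difference was not worked out here. All 8 writer genes had a peak in shNC and 7 in shY2-2, where 81.4% and 78.5% of the background gene names did. Peaks in both lists were found for 7, against 72.8%, and overlapping peaks for 6, against 64.6%. Of the member peaks, 17 of 26 in shNC overlapped a shY2-2 peak (65.4%, against 55.3% of all shNC peaks). In the other direction 18 of 27 did (66.7%, against 64.7%). Fold enrichment ran from 1.29 to 6.49 in shNC and from 1.16 to 6.94 in shY2-2, and its median was 2.21 and 2.17, beside 2.17 and 2.26 over all peaks.

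The caller's false discovery rate (FDR) describes reads within these libraries, not replicates. An FDR of 0.05 or less was reached by 20 of the 26 writer peaks in shNC and by 14 of the 27 in shY2-2, against 56.4% and 52.1% of all peaks. Of those 20, 16 were found again in shY2-2, where 74.9% of all such peaks were, and of the 14, 13 were found in shNC, against 86.1%. Of the 6 weaker shNC peaks 1 was found again and of the 13 weaker shY2-2 peaks 5, against 30.0% and 41.4%. The highest fold enrichments did not belong to the best supported peaks. The shY2-2 peaks of 6.94 in METTL3 and METTL14 have an FDR of 0.979, and 866 peaks of that list carry exactly these values.

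**Figure D3:**
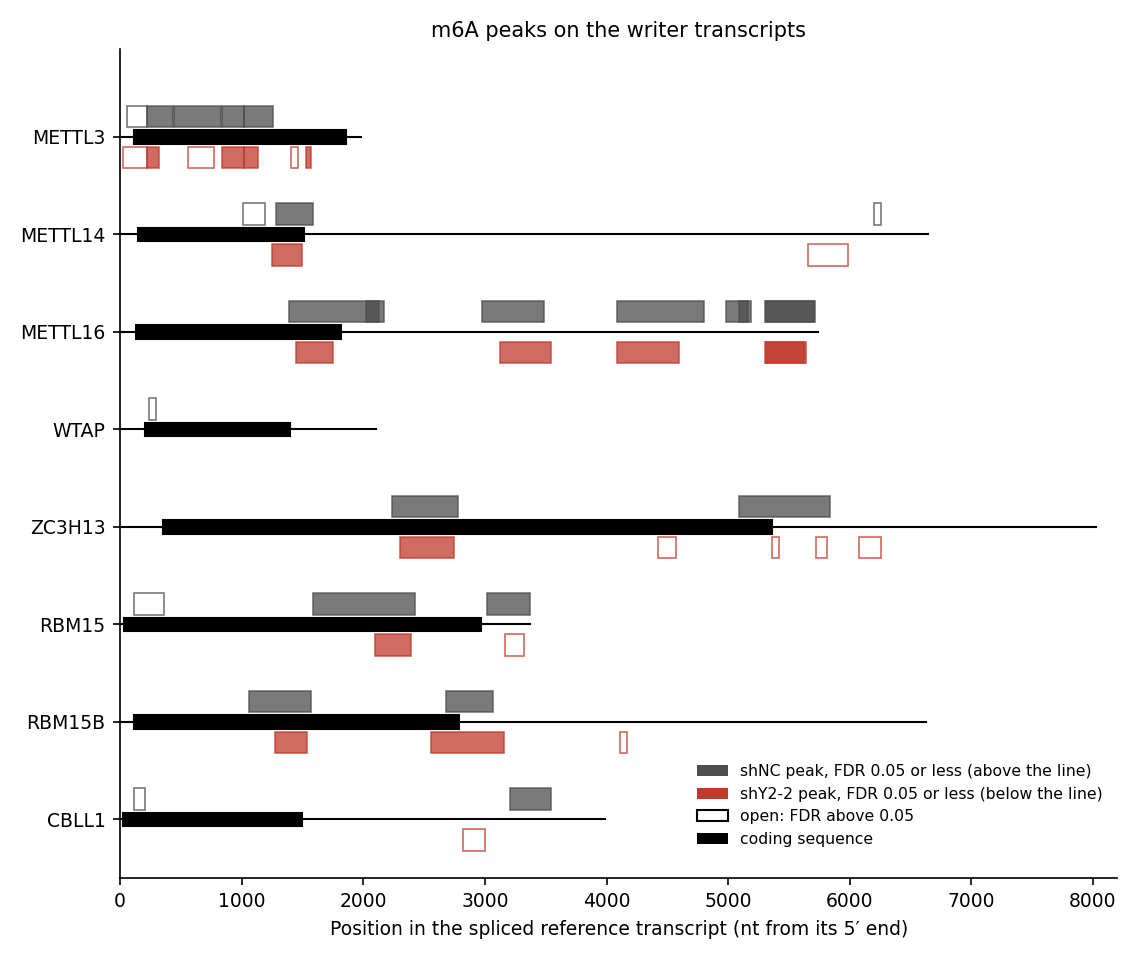
Peaks on the spliced canonical transcript of each writer gene (horizontal axis, nt from the 5′ end; thick line, coding sequence), shNC above and shY2-2 below the line, filled at an FDR of 0.05 or less and open above it. Peaks with no part in the canonical exons are not drawn. METTL16 peaks crowd the last exon, and ZC3H13, RBM15 and RBM15B carry peaks within their coding sequence in both conditions.

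METTL3 had the pair with the highest log2 ratio of fold enrichment among the 8 genes, and more peaks in shY2-2 than in shNC. It had 5 peaks covering 1800 nt in shNC and 8 covering 2011 nt in shY2-2; only 0.865% of background genes had 8 or more in shY2-2, and 12.0% had 5 or more in shNC. At an FDR of 0.05 or less it had 4 peaks in each condition, but not all at the same places. Of the shY2-2 peaks with no shNC partner, those in intron 1 and over exons 6 to 8 had FDRs of 0.979 and 0.239. The short one at exon 8 (1.32, 61 nt) had an FDR of 0.0178. At exon 3 the FDR was 0.00661 in shNC and 0.286 in shY2-2. All 5 shNC peaks had a partner, but fold enrichment went both ways. At exon 2 it was 1.29 in shNC (FDR 0.0347) and 4.63 in shY2-2 (FDR 0.00224). At exon 5 it was 1.43 (FDR 0.000257) and 3.66 (FDR 0.00282). At exon 4 it was 3.56 (FDR 1.55e-09) and 1.70 (FDR 0.00162); the METTL3 window above lies in the part of these peaks that reaches into intron 3. The pairs at exon 1 (2.37 and 1.93) and exon 3 (1.36 and 1.16) differed less. The log2 ratios at exons 2 and 5, 1.84 and 1.36, lie above percentile 95 of all pairs (1.02), and that at exon 4, -1.07, is at percentile 5.02.

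The partners in METTL3 were not the same stretch of RNA, since their edges moved. The canonical transcript has 11 exons, and parts of many METTL3 peaks lay in its introns 1, 2, 3, 4 and 8, each of these parts within exons of other annotated METTL3 transcripts. The share of the peak outside canonical exons was 33.9% in shNC and 78.8% in shY2-2 at exon 2, and 33.3% and 69.2% at exon 5. At exon 4 it went the other way, 67.4% in shNC and 34.8% in shY2-2. In each of these 3 pairs, fold enrichment was higher in the peak that reached farther outside. At exons 1 and 3 the share was at most 10.0%. The shY2-2 peak of 6.94 lay wholly in intron 1, from 21504917 to 21507954. Over all peaks of coding genes the median fold enrichment also differed with this share: 2.05 for shNC peaks fully within canonical exons, 2.12 for those up to 50% outside and 2.51 for the rest. In shY2-2 these medians were 2.01, 2.24 and 2.83. The METTL3 peaks share their libraries, and the part of these intronic stretches in the difference between conditions was not tested.

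**Figure D4:**
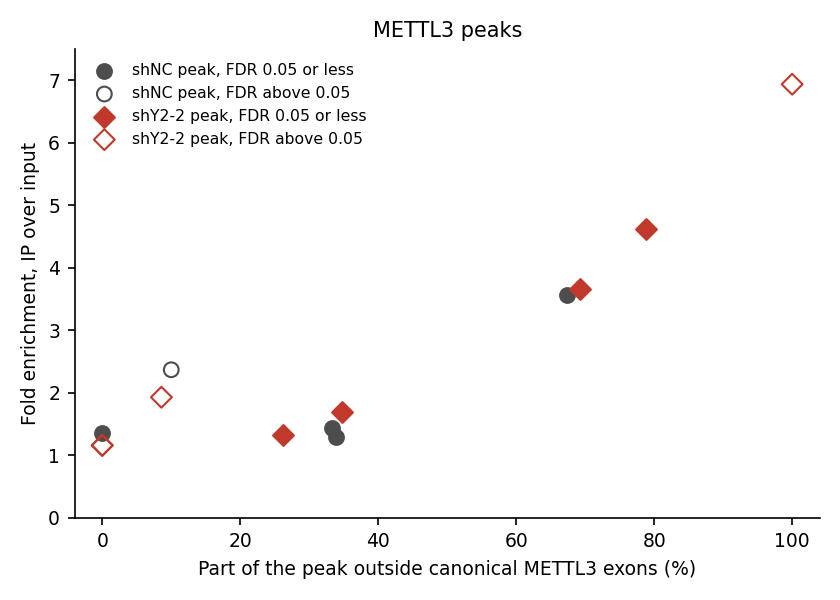
Fold enrichment, IP over input (vertical axis), of each METTL3 peak against the percent of the peak outside canonical METTL3 exons (horizontal axis), 5 shNC and 8 shY2-2 peaks; filled points have an FDR of 0.05 or less and open points a higher one. The 4 peaks with more than 50% outside have fold enrichments of 3.56 to 6.94 and the other 9 of 1.16 to 2.37.

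METTL14 kept 1 peak near its stop codon, which only the shNC peak reached. It was 1.97 in shNC (FDR 0.0135) and 2.48 in shY2-2 (FDR 0.000692), with 211 nt in common around the METTL14 window above. The other METTL14 peaks were weakly supported. In shNC they were 1.76 in exon 10 (FDR 0.0955) and 6.10 far in the 3′UTR (FDR 0.369), the latter with values that 56 peaks share. In shY2-2 the other was the 3′UTR peak of 6.94.

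As listed, METTL16 had the most supported peaks of the 8 in both conditions, 7 of 7 at an FDR of 0.05 or less in shNC and 5 of 6 in shY2-2. Only 3.00% of background genes had as many listed peaks in shNC and 3.80% in shY2-2. Some METTL16 peaks cover the same RNA, so these counts exceed the number of separate places. The shNC peaks of 2.65 and 2.12 share 390 nt, and that of 2.29 shares 181 of its 205 nt with others. The shY2-2 peaks of 1.94 and 1.78 share 312 nt, and METTL3 had 4 supported peaks there. All 7 shNC peaks and 5 of the shY2-2 peaks lay in exon 10, the last, which holds the 3921 nt of the 3′UTR. All 5 pairs were lower in shY2-2. The pair with the highest shNC fold enrichment was 4.79 (FDR 2.51e-11) and 3.47 (FDR 2.82e-08), at the METTL16 3′UTR window. Next to it was a pair of 4.58 and 3.80. The pair at the coding window was level, 1.85 and 1.82 (FDR 1.05e-07 and 1.45e-09). The remaining pairs, 2.65 and 2.12 in shNC, are overlapping shNC peaks with the same shY2-2 partner of 1.78, so the 5 pairs are not independent. Each of the 5 ratios, from -0.57 to -0.02, lies within the span from percentile 5 to 95 of all pairs (-1.07 to 1.02). The shY2-2 peak at 2407136 to 2414419 (3.85, FDR 0.257) has no part in the canonical exons.

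MAT2A, the known target of METTL16, had 2 peaks in shNC and 1 in shY2-2. The letters TACAGANAA, which hold the METTL16 target sequence of the MAT2A hairpins, were searched on the gene's strand. They occur in 1 shNC peak (1.15, FDR 0.00282) and in the shY2-2 peak (1.19, FDR 0.000832), at chr2:85544593-85544613 on the plus strand, 827 nt after the stop codon. The site is shown with the motif in capitals.
MAT2A, 3′UTR: atgtcaTACAGAGAAgtcaca
Of all peaks, 1.10% in shNC and 1.05% in shY2-2 hold these letters, and none of the writer peaks does. Fold enrichment at this MAT2A site was lower than the medians of 2.17 and 2.26 over all peaks in both lists.

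ZC3H13 had the best supported peak of the 8, in coding sequence. It spanned exons 11 and 12 in shNC at 2.51 (FDR 2.00e-33) and lay in exon 12 in shY2-2 at 3.20 (FDR 3.16e-44), with 450 nt in common. ZC3H13 RNA was lower in shY2-2 while this peak was higher, and neither difference has a replicate. In the 3′UTR a peak of 2.83 in shNC (FDR 0.0024) covered 750 nt, 272 of them coding and 478 beyond the stop codon. In its place shY2-2 had short peaks of 1.70 (FDR 0.409, 61 nt) and 2.23 (FDR 0.114, 91 nt). ZC3H13 had 2 peaks in shNC and 5 in shY2-2, but only 1 of those 5 was at an FDR of 0.05 or less.

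RBM15 and RBM15B each carried a coding peak and a peak near the 3′ end in both conditions. In RBM15 the coding peak of exon 1 was 2.52 in shNC (FDR 1.82e-06) and 3.43 in shY2-2 (FDR 2.29e-08), a log2 ratio of 0.44. Its 3′UTR peak was 6.49 in shNC (FDR 0.00589, 360 nt) and 2.17 in shY2-2 (FDR 0.354, 151 nt). That ratio, -1.58, was the lowest of the writer pairs, and its shY2-2 peak was weakly supported. In RBM15B the peak over the stop codon was 2.06 in shNC (FDR 9.12e-06) and 1.99 in shY2-2 (FDR 1e-11). Its coding peak was 1.70 (FDR 0.0055) and 1.31 (FDR 0.0309). RBM15B thus had the larger difference in RNA and RBM15 the larger in its 3′ peak.

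WTAP and CBLL1 had no overlapping peaks. The WTAP peak in shNC was 1.82 (FDR 0.123), 181 nt in 3 blocks of which 56 nt lie in canonical exon 3. A peak in shNC and none in shY2-2 was found for 8.58% of background genes. CBLL1 had shNC peaks of 3.26 at its 5′ end (FDR 0.00178, 240 nt, none of it in the canonical exons), 1.91 at exon 2 (FDR 0.0562) and 2.97 in the 3′UTR (FDR 0.0191). The peak of 3.26 begins at 107743204, upstream of the listed gene start at 107743697. It held neither GGAC nor DRACH on the CBLL1 strand. The CBLL1 peak in shY2-2, 2.64 in the 3′UTR (FDR 0.22), lay nearer to the stop codon than the shNC peak there. CBLL1 and METTL14 were the writer genes with the lowest FPKM in both libraries.

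**Figure D5:**
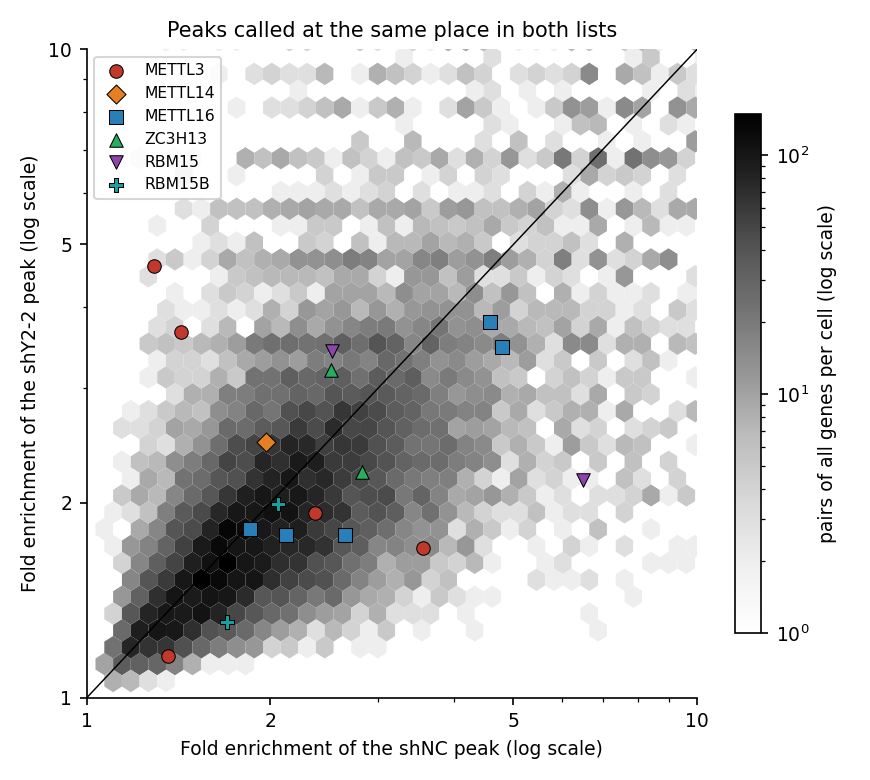
Fold enrichment of the shNC peak (horizontal, log scale) and of its overlapping shY2-2 peak (vertical, log scale) for the 17 pairs of the writer genes, over all 17174 pairs (grey, pairs per cell on a log scale). Of the 17 points 12 lie below the diagonal; METTL3 at 1.29 and 4.63 and RBM15 at 6.49 and 2.17 are farthest from it.

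Over the 17 pairs of overlapping peaks, 12 had a lower fold enrichment in shY2-2 and 5 a higher one, where 55.4% of all 17174 pairs were lower. The median log2 ratio was -0.25, against -0.06 over all pairs. Past 1.5-fold were 2 pairs upward, both in METTL3, and 2 downward, in METTL3 and RBM15; of all pairs, 11.1% and 14.6% passed. METTL16 gave 5 of the 12 lower pairs. Fold enrichment is set against the input, so it is not a measure of how many molecules are methylated.

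By position, most writer peaks had their midpoint in the coding sequence or the 3′UTR of the canonical transcript. The deposited annotation puts 16 of the 26 shNC peaks in the 3′UTR, 6 in the 5′UTR and 4 in another exon, and of the shY2-2 peaks 18, 3 and 6. On the canonical transcripts, no peak had its midpoint in the 5′UTR, 14 shNC and 13 shY2-2 peaks had it in the coding sequence, and 11 and 12 in the 3′UTR; 1 shNC and 2 shY2-2 peaks had no part in these transcripts. The METTL3 peaks at exon 1 held 62 nt of 5′UTR in shNC and 92 nt in shY2-2. The start codon, with 100 nt before and after it, was touched by 5 shNC and 2 shY2-2 peaks. Among the peaks annotated as 3′UTR, 5 in shNC and 6 in shY2-2 had a coding midpoint, as did 5 and 3 of those annotated as 5′UTR. METTL3 accounts for many of these: its peaks were annotated as 5′UTR, 3′UTR or exon, and each of those with a part in its canonical transcript had a coding midpoint. The stop codon, with 100 nt before and after it, was touched by 5 shNC and 4 shY2-2 peaks, in METTL14, METTL16, ZC3H13 and RBM15B in both conditions and in RBM15 in shNC.

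GGAC, searched on the strand of the gene, occurred in 19 of the 26 shNC peaks, where 61.0% of all peaks held it, and in 12 of the 27 shY2-2 peaks, where 60.6% did. These shares depend on peak length. The median exonic length of writer peaks was 360 nt in shNC and 270 nt in shY2-2, against 270 nt over all peaks of either list. The density of GGAC was 4.19 per kb over 9556 nt of writer peaks in shNC and 3.25 per kb over 6766 nt in shY2-2. Over all peaks it was 4.10 and 3.95, and over the canonical transcripts of the 8 genes 3.85 per kb, with 148 copies in 38475 nt. RBM15, with 12 copies in its shNC peaks and 2 in its shorter shY2-2 peaks, and METTL16, with 8 and 4 counted peak by peak, hold most of the difference between the lists. The wider DRACH consensus, which counts bases D (A, G or T), R (A or G), A, C and H (A, C or T), had 20.3 and 19.7 matches per kb in writer peaks and 20.7 in the canonical transcripts. Over all peaks DRACH had 19.4 and 18.8 matches per kb. Overlapping peaks were merged for the writer densities but not for those over all peaks. The GGAC density was above that of the transcripts in the shNC writer peaks and below it in the shY2-2 ones. The DRACH density was below that of the transcripts in both.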

How the data were processed

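Input and m6A IP libraries, 1 of each per condition, came from A549 cells with the control vector (shNC) or with the YTHDF2 shRNA (shY2-2). Per the labels and the methods of the study, reads were mapped to GRCh38 with HISAT2, and the authors ran StringTie on the input libraries for the deposited FPKM of each gene. The authors called peaks with exomePeak on each IP library against its input and annotated them with ChIPseeker; fastp and HOMER are also named in the submitters' processing notes. The authors' peak lists hold a p-value, scores that are log10 of the p-value and of the FDR, and a fold enrichment, which is the ratio of IP to input on a linear scale. Versions and the authors' annotation release are not given in the sources used here. Depth is unknown for FPKM and for peaks, so no interval or detection floor is given.

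Ratios were computed with a pseudocount of 1 over the genes that reached an FPKM of 1 in either input library, and with 1 library per condition and kind no test was run. Library roles were taken from the labels. Peaks of equal position were counted once, and peaks of a gene were matched by an overlap of exonic blocks of at least 1 bp on the same strand, each shNC peak with the shY2-2 peak of the largest overlap. Positions, exons and sequences were read from GENCODE release 44 (canonical transcripts, GRCh38). The members and lists were chosen with earlier results of these data known. All 8 members are named, with VIRMA, YTHDF2, MAT2A, the other pathway genes past 1.5-fold and genes that share exon sequence; MAT2A was named after its value was seen, as the target of METTL16. Each printed window is the GGAC, or else DRACH, nearest to the middle of the part common to the pair with the highest shNC fold enrichment; coding windows of METTL16, ZC3H13 and RBM15, from the pair with the lowest FDR, were added after the values were seen. Protein sequences were not used here. The alternatives were another pseudocount and none, other FPKM filters, centring, stricter peak filters, other overlap rules and DRACH. The log2 ratio, the overlap of exonic blocks and the positions in transcripts were tested on simulated data. The matching of peaks, the reading of sequences, the motif search and the percentiles were not. The tools were Python 3.11.15, pandas 2.3.3, NumPy 2.4.6, matplotlib 3.10.9 and pysam 0.24.0.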

Additional observations from a re-analysis of the deposited data

How the results depend on the processing

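Across 126 recomputed values of 44 results, 61 of 62 values of single genes kept their sign. The exception was METTL16, at -0.00 when ratios were centred on all genes. RBM15B passed 1.5-fold with a pseudocount of 0.1 or none (0.61 in both), so that the count of members 1.5-fold higher was then 1. With a pseudocount of 0.1 the counts over all genes were 1105 higher and 1683 lower at 1.5-fold and 315 and 602 at 2-fold, and with an FPKM of at least 5 they were 416 and 641 at 1.5-fold. Member peaks at an FDR of at most 0.05 were 14 in shY2-2, and at 0.001 they were 11 in shNC, in 5 members, and 8 in shY2-2. At a fold enrichment of at least 2 there were 15 and 14 peaks, and at 4 there were 4 and 4, in 3 and 3 members. The density of matches in shNC peaks over that in the canonical transcripts was 1.09 for GGAC and 0.98 for DRACH, so its direction reversed. Fewer peaks are left by construction under stricter filters; the cause of the other shifts was not tested. With 1 library per condition and kind, there were no replicates to pair and no library could be left out. The unknown depth limits each value.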
